A study of Gallus gallus with 20 samples.

Results

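Genes of the chicken lens were sorted by where JARID2 and AEBP2, accessory subunits of Polycomb repressive complex 2 (PRC2), were found at their ends at embryonic day 4.5. A protein-coding gene on an assembled chromosome counted as having a protein when a deposited peak of that antibody lay within 1 kb of either end of the gene. Of 17839 such genes, 10709 had JARID2, AEBP2 or both. JARID2 without AEBP2 was found at 4095 genes (23.0% of all), AEBP2 without JARID2 at 3005 (16.8%), both at 3609 (20.2%) and neither at 7130 (40.0%). Peaks are called regions below, and each has a fold, which is the ratio of its signal to the background that the peak caller estimated. Fold values are the authors', and they are compared only between regions of the same list.

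PRC2 places methyl groups on lysine 27 of histone H3, and its trimethylated form, H3K27me3, marks genes of other lineages that a tissue keeps silent. EZH2, the enzyme, and SUZ12, its scaffold, are core subunits, and EZH1 can take the place of EZH2. JARID2 and AEBP2 join the same form in mammals, named PRC2.2, where they bind ubiquitinated nucleosomes and raise the activity of the enzyme. H3K4me3 is a mark of active and poised promoters, and promoters with both marks are called bivalent.

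Chromatin came from lenses dissected at embryonic day 4.5 and combined in pools of about 44 lenses, and it was profiled by CUT&RUN, a method that releases the DNA around a target protein in nuclei with a nuclease tethered to the antibody. Each antibody was used on 3 libraries with 100000 nuclei per reaction, JARID2 at a dilution of 1 in 50 and AEBP2 at 1 in 25. EZH2, SUZ12, H3K27me3 and H3K4me3 were profiled in the same way apart from the dilution. It was 1 in 100 for EZH2 and SUZ12 and 1 in 50 for the histone marks. All embryos were of 1 kind, with no treatment or mutant named in the labels, and each antibody is represented by 1 list that covers its 3 libraries. The comparisons below therefore set positions in these lists side by side, with no spread between libraries, and intervals on shares (exact binomial, 95%) cover counting only and treat neighbouring genes as independent.

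The JARID2 list held 48093 regions with a median width of 253 bp, against 168110 regions of 249 bp in the AEBP2 list. JARID2 regions reached a width of 25187 bp and a fold of 85.2, with a median fold of 4.29. AEBP2 regions reached 3054 bp and a fold of 41.4, with a median of 3.71. A −log10 q-value of at least 5 was met by 43.6% of JARID2 regions and 44.5% of AEBP2 regions. Read depth is unknown and the antibodies were used at different dilutions, so a longer list does not show that more of the protein was bound.

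The smaller list was the one more concentrated at genes. Windows around gene ends were covered by JARID2 for 5.93% of their length, against 1.33% of the rest of the chromosomes, a ratio of 4.46. AEBP2 covered 3.91% of the windows and 5.15% of the rest, a ratio of 0.759. In all, 18.3% of JARID2 regions and 4.63% of AEBP2 regions lay at a gene end. Counted by gene, JARID2 was found at 7704 genes (43.2%) and AEBP2 at 6614 genes (37.1%).

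Genes with JARID2 more often had AEBP2 than other genes did. AEBP2 was found at 46.8% of genes with JARID2, against 29.6% of genes without it. Read the other way, JARID2 was found at 54.6% of genes with AEBP2, against 36.5% of genes without it. The 3609 genes with both were 1.26 times the 2856 that the product of the overall shares gives. This product runs over all genes, and 33.7% of genes with neither protein are known only by a LOC identifier, against 19.8% of all. Of 14300 genes with a symbol, 6904 had JARID2, 5942 had AEBP2 and 3271 had both. The ratio was not worked out for these genes, and 1.26 is not to be read as theirs. Genes near each other can hold the same region: 43.5% of genes with JARID2 and 36.2% of genes with AEBP2 had a region that also lay at another gene.

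Sharing a gene did not always mean sharing a site. Among genes with both proteins, 3098 (85.8%) had them at the same gene end and 2197 (60.9%) had regions that overlapped. Genes with both proteins whose regions did not overlap had a median gap of 700 bp between the nearest pair. A region of EZH2 lay over the overlapping pair at 1746 genes (48.4% of genes with both). Among genes with both proteins, overlap was seen for 69.8% of 875 genes with both histone marks and 67.8% of 836 genes with H3K27me3 alone. It was seen for 55.6% of 1588 genes with H3K4me3 alone and 43.9% of 310 genes with neither mark. An overlapping pair with EZH2 was found at 64.0% of those with both marks and 56.9% with H3K27me3 alone. The shares were 43.3% with H3K4me3 alone and 7.42% with neither mark.

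Over all positions, 19.4% of JARID2 regions overlapped AEBP2 (19.0 to 19.7), and 5.66% of AEBP2 regions overlapped JARID2 (5.55 to 5.77). Overlapping JARID2 regions were somewhat wider than the others, with a median of 275 bp against 249 bp, and a wider region meets another more easily. When JARID2 regions were ordered by fold and split in 10 equal groups, the overlap was 14.0% in the lowest group and 28.9% in the highest, and the median width was 236 bp in the lowest group and 378 bp in the highest. AEBP2 regions that overlapped JARID2 lay in EZH2 regions in 30.5% of cases and in H3K27me3 regions in 24.0%. For AEBP2 regions away from JARID2 these shares were 3.27% and 3.20%. JARID2 regions showed a smaller contrast: 29.4% of those that overlapped AEBP2 lay in EZH2 regions and 23.0% in H3K27me3, against 18.2% and 19.7% of those that did not.

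The histone marks at gene ends differed between the classes, and neither mark was used to form them. H3K27me3 was found at 40.2% of genes with JARID2 alone (38.7 to 41.8), 17.2% with AEBP2 alone (15.8 to 18.6), 47.4% with both (45.8 to 49.1) and 10.7% with neither (9.98 to 11.4), against 26.0% of all genes. Where H3K27me3 was present, its median fold was 15.7 at genes with JARID2 alone, 6.22 with AEBP2 alone, 16.6 with both and 7.04 with neither. H3K4me3 differed less. It was found at 65.4% of genes with JARID2 alone, 59.4% with AEBP2 alone, 68.2% with both and 46.0% with neither, against 57.2% of all genes. The difference between JARID2 alone and AEBP2 alone was not stable: with the AEBP2 list reduced to the size of the JARID2 list both shares were 65.6%, with windows of 500 bp they were 62.5% and 62.2%, and on chromosomes 11 to 28 (16 apart) they were 67.1% and 68.5%.

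The core subunits followed the same order as H3K27me3. EZH2 was found at 74.9% of genes with JARID2 alone, 60.1% with AEBP2 alone, 86.5% with both and 36.3% with neither, against 59.3% of all genes. SUZ12 was found at 76.0%, 67.4%, 82.7% and 47.5% of genes in the same classes, against 64.5% of all genes. The SUZ12 difference between the single classes was small on chromosomes 11 to 28 (16 apart), with 77.1% for JARID2 alone and 76.2% for AEBP2 alone. Where SUZ12 was present, its median fold was 4.12 with JARID2 alone and 4.45 with AEBP2 alone. The plot of marks by class shows the shares over all chromosomes with their intervals.

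**Figure D1:**
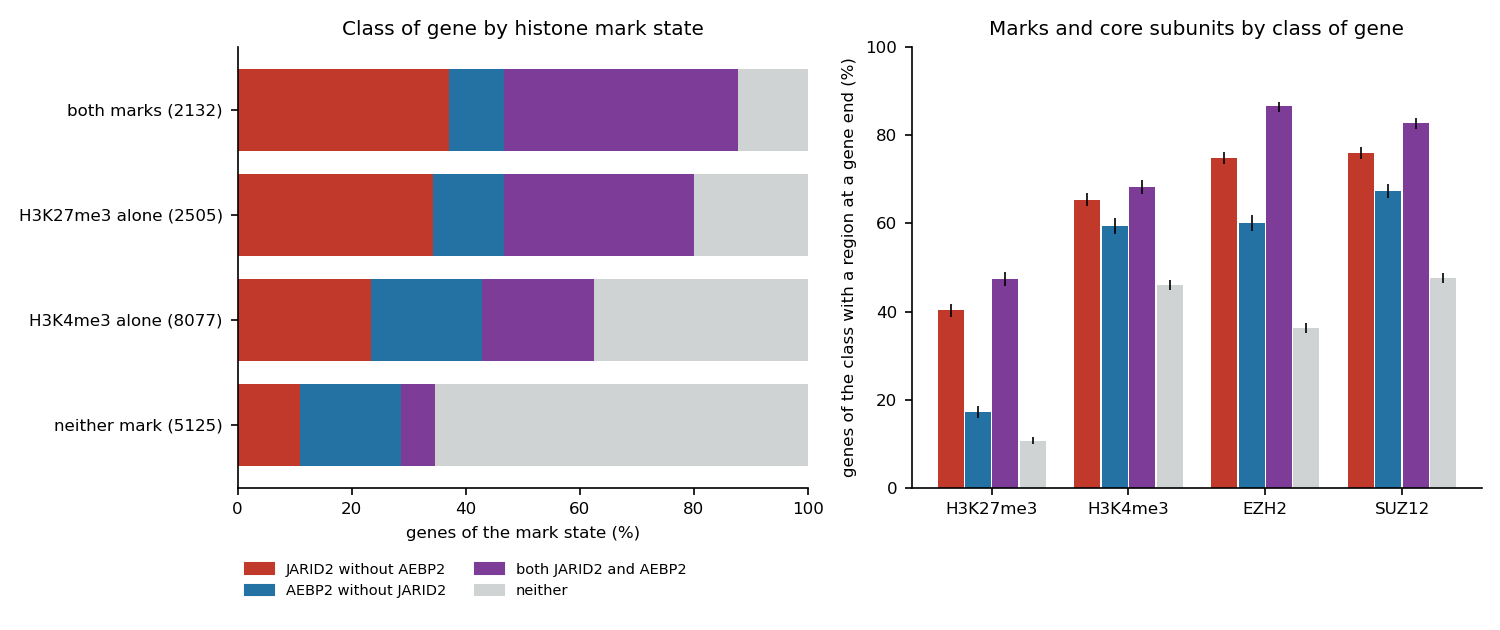
Left, share (%) of the genes in each histone mark state that had JARID2 without AEBP2, AEBP2 without JARID2, both or neither at a gene end, with the number of genes in brackets. Right, share (%) of the genes of each class with H3K27me3, H3K4me3, EZH2 or SUZ12 at a gene end, with exact 95% binomial intervals for counting error: H3K27me3 stood at 40.2% with JARID2 alone and 17.2% with AEBP2 alone.

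Seen from the marks, genes with both H3K27me3 and H3K4me3 were the state with the most JARID2. Each mark counted at either gene end, so the marks can lie at different ends and these genes are not shown to be bivalent. Of 2132 genes with both marks, 37.1% had JARID2 alone, 9.62% AEBP2 alone, 41.0% both and 12.3% neither. Of 2505 genes with H3K27me3 and no H3K4me3, the shares were 34.3%, 12.4%, 33.4% and 20.0% in the same order. Of 8077 genes with H3K4me3 and no H3K27me3, they were 23.4%, 19.6%, 19.7% and 37.4%. Only among the 5125 genes with neither mark was AEBP2 alone the more frequent of the single classes, with JARID2 alone at 10.9% and AEBP2 alone at 17.7%. Genes with neither mark made up 13.7% of the JARID2-alone class, 30.2% of the AEBP2-alone class and 8.59% of genes with both.

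The height of the JARID2 signal went with H3K27me3 more steeply than the height of the AEBP2 signal did. Genes with JARID2 were ordered by their highest JARID2 fold and split in 10 equal groups: H3K27me3 was found at 19.3% of the lowest group and 88.5% of the highest, and AEBP2 at 42.2% of the lowest and 57.2% of the highest. Genes with AEBP2 ordered by AEBP2 fold had H3K27me3 at 16.5% of the lowest group and 48.5% of the highest. Their share with JARID2 was 44.3% in the lowest group and between 50.5% and 59.3% in the others, without a steady order. The median JARID2 fold was 5.99 at JARID2-alone genes with H3K27me3 alone and 3.89 at those with H3K4me3 alone. The median AEBP2 fold at AEBP2-alone genes was 3.82 with H3K27me3 alone, 2.92 with H3K4me3 alone and 3.98 with neither mark, so genes with H3K27me3 alone and with neither mark had close AEBP2 medians.

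**Figure D2:**
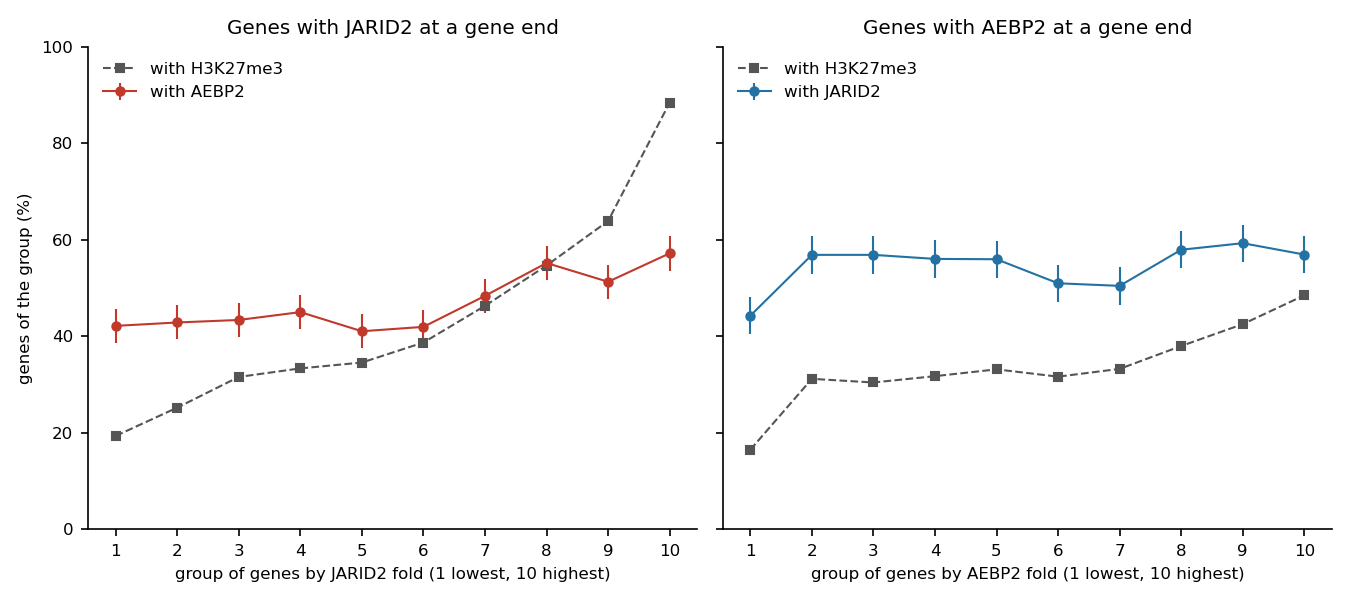
Share (%) of genes with the other accessory subunit (solid line, exact 95% binomial intervals for counting error) and with H3K27me3 (dashed line), over 10 equal groups of genes ordered by the fold of JARID2 (left) or AEBP2 (right) at their ends. H3K27me3 is found at 19.3% of genes in the lowest JARID2 group and 88.5% in the highest, and at 16.5% and 48.5% in the lowest and highest AEBP2 groups.

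The genes with the highest JARID2 fold among those without AEBP2 were mostly homeobox, paired box and other developmental transcription factor genes. All coordinates are on the build GRCg7b. DLX5, a homeobox gene of the branchial arches and forebrain (chr2:24355474-24357757), lay within a JARID2 region at chr2:24346314-24357873 with a fold of 70.1. PAX1, a factor of the sclerotome (chr3:3668985-3673695), had a region with a fold of 57.3 at chr3:3672998-3675211. TBX15, a T-box factor of limb and skeletal development, followed with 56.8 and EN1, an engrailed factor of the midbrain and hindbrain, with 55.8. EN2, its relative, shared a region with a fold of 53.3 at chr2:7882784-7884955 with its neighbour INSIG1, a regulator of sterol synthesis. NKX6-1, a ventral neural tube factor, had 45.4, and FOXD1 had 44.5. SKOR1, a neural corepressor, and PIAS1, a SUMO ligase, shared a region with a fold of 44.1. Each of these genes had H3K27me3 and EZH2 at an end, with EZH2 folds between 57.2 at FOXD1 and 230.1 at PIAS1 and SKOR1.

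The genes with the highest AEBP2 fold among those without JARID2 were of mixed function, and several had neither histone mark. NKPD1 (chr38:576641-589071) had the highest AEBP2 fold of the list, 41.4, in a region at chr38:588683-589062, and it had H3K4me3 with a fold of 89.8 and H3K27me3 with 6.08. ESR1, the gene of an estrogen receptor (chr3:48719758-48824554), had 18.3 at chr3:48719467-48720258 and no region of any of the other 5 antibodies at its ends. ARC, an activity-induced neuronal gene, had 17.0 with an EZH2 region of fold 4.32 and neither mark. GFRAL, the receptor of GDF15, had 16.2 together with H3K27me3 and EZH2. BRD9, a subunit of a chromatin remodeler, and TRIP13, an ATPase of the spindle checkpoint, lie next to each other and shared a region with 14.6. URB1, a ribosome assembly factor, followed with 13.9. FGF23, a hormone of phosphate balance, had 13.8 and COL5A2, a fibrillar collagen chain, had 13.8, both without either mark and with a SUZ12 region of fold 4.70 and 3.79.

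At genes with both proteins the highest folds of the 2 lists fell on different genes. KLF5, an epithelial Krüppel-like factor (chr1:156007859-156026745), had a JARID2 fold of 6.11 and the highest AEBP2 fold of this class, 22.5 at chr1:156026399-156026901. BRSK1, a neuronal kinase, had a JARID2 fold of 2.94 and an AEBP2 fold of 20.1. GABRG3, a GABA receptor subunit, had a JARID2 fold of 3.80 and an AEBP2 fold of 20.0, in overlapping regions. SEC22C, a vesicle trafficking gene, had a JARID2 fold of 2.73 and an AEBP2 fold of 18.2, in regions 552 bp apart. Among the genes of this class with high JARID2 folds, LBX2 had a JARID2 fold of 73.3 with an AEBP2 fold of 5.95, ZIC5 had 72.0 with 7.26, and DLX6 had 70.1 with 3.99. DLX6 and DLX5 lie within the same JARID2 region, and an AEBP2 region at chr2:24346979-24347184 lay within 1 kb of an end of DLX6 but not of DLX5.

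Genes were next grouped by family. Family members carry symbols, and of 14300 genes with a symbol 25.4% had JARID2 alone, 18.7% AEBP2 alone, 22.9% both and 33.0% neither. Homeobox, T-box, forkhead and similar factors, here 246 developmental regulators, fell outside these shares. JARID2 alone was found at 107 of them and AEBP2 alone at 17, with both at 102 and neither at 20. Of the 14300 genes with a symbol, 6904 had JARID2 and 5942 AEBP2 in all, and of the 246 regulators 209 and 119 did. AEBP2 was thus no rarer at the regulators. Their median JARID2 fold was 17.5 where present, against 4.61 for genes with a symbol, while their median AEBP2 fold was 3.71, against 3.37. H3K27me3 was found at 82.5% of them. With a −log10 q of at least 5 required in both lists, the counts became 134 with JARID2 alone, 14 with AEBP2 alone and 62 with both. Among the 14300 genes with a symbol the same limit gave 3176, 2276 and 1617, in place of 3633, 2671 and 3271. A fall in genes with both at the stricter q is therefore general, and the family counts below are to be read beside it.

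**Figure D3:**
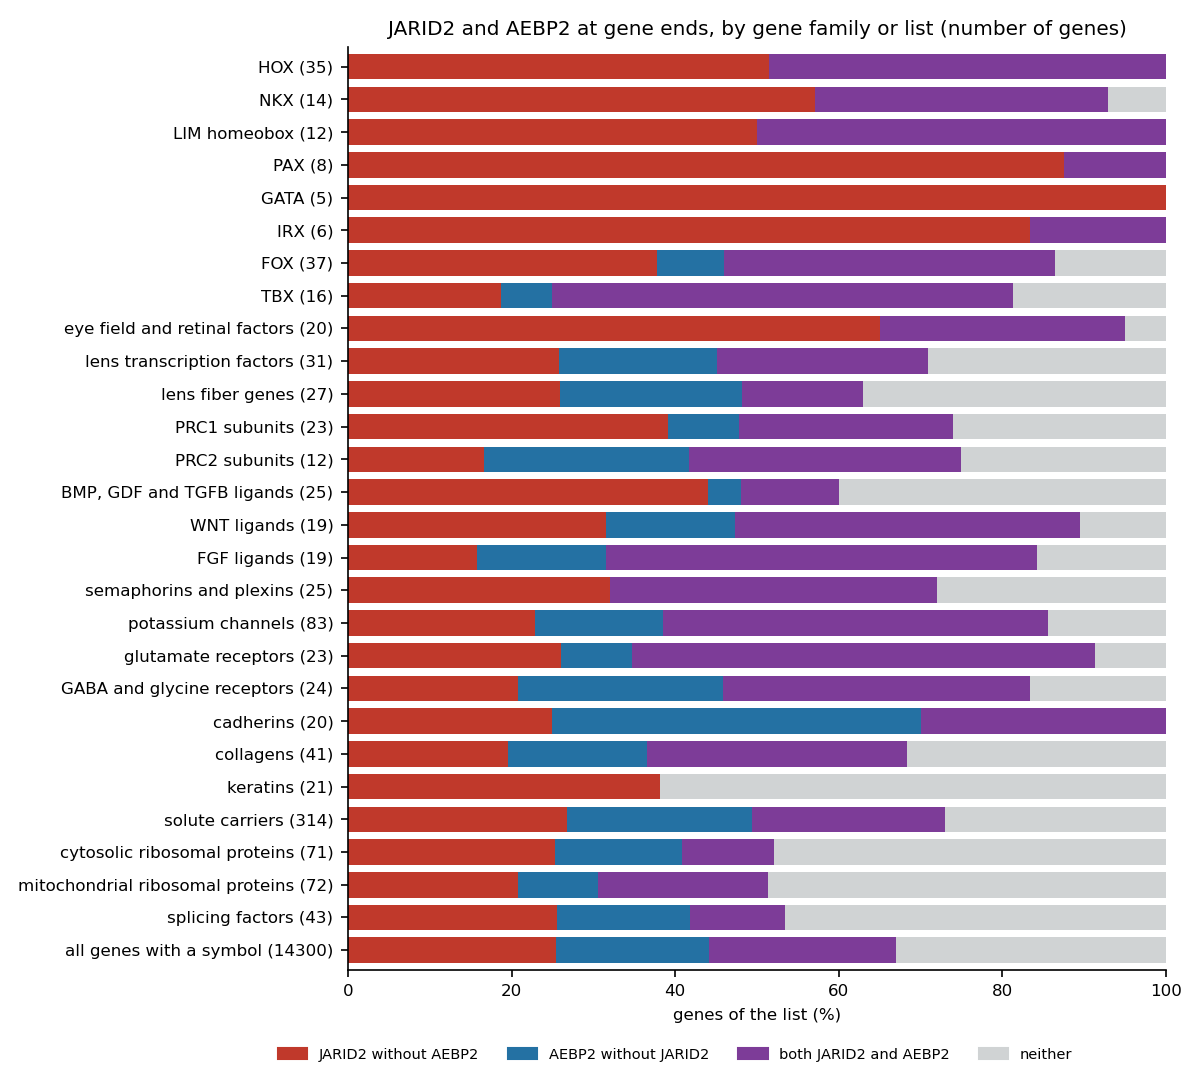
Share (%) of the genes of each family or list with JARID2 without AEBP2, AEBP2 without JARID2, both or neither at a gene end, with the number of genes in brackets. The HOX, LIM homeobox, PAX, GATA and IRX rows have no blue or grey, and the bottom row gives all 14300 genes with a symbol (25.4%, 18.7%, 22.9% and 33.0%).

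All 35 HOX genes, which set position along the body axis, had JARID2, 18 of them without AEBP2 and 17 with it, and none had AEBP2 alone. All had H3K27me3 and none H3K4me3. HOXC10 had the highest JARID2 fold among those without AEBP2, 41.0, followed by HOXD3 with 38.8 and HOXA4 with 34.4. HOXA9, HOXA10 and HOXA11 shared a JARID2 region with a fold of 42.8 and an AEBP2 region with a fold of 4.31. HOXD13 had 42.8 for JARID2 and 2.59 for AEBP2, and HOXA13 had 35.9 and 5.36. With a −log10 q of at least 5, 24 HOX genes had JARID2 alone and 11 had both.

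Across the clusters themselves JARID2 covered most of the length and AEBP2 isolated sites. On chromosome 2 the HOXA cluster (chr2:32478290-32586457, with 1 kb added on each side) was covered by JARID2 for 87.5% of its length in 31 regions, and by AEBP2 for 2.88% in 14. On chromosome 27 the HOXB cluster was covered for 63.2% by 78 JARID2 regions and for 2.88% by 19 AEBP2 regions. The HOXC cluster on chromosome 34 had cover of 75.4% and 1.35%, and the HOXD cluster on chromosome 7 had 94.2% and 3.35%. The AEBP2 cover of the clusters was below its 3.91% of gene-end windows over all chromosomes, but AEBP2 density differed between chromosomes. AEBP2 had 44.9 regions per Mb on chromosome 27 and 38.9 on chromosome 34, against 197 on chromosomes 1 to 5. HOXB held 19 AEBP2 regions in 141 kb and HOXC held 5 in 80.0 kb. Cover was not compared with windows of the same chromosome. Within the clusters the median AEBP2 fold ran from 2.39 in HOXD to 4.08 in HOXC, and the median JARID2 fold from 9.87 in HOXB to 17.1 in HOXD.

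Several other developmental families had JARID2 alone at most of their members, and none of them had a member with AEBP2 alone. All 5 GATA genes, of blood, heart and gut lineages, had JARID2 without AEBP2, with folds of 23.4 at GATA5, 20.9 at GATA6, 14.2 at GATA2, 11.7 at GATA4 and 6.13 at GATA3. Of 8 PAX genes 7 had JARID2 alone, with PAX2 at 29, PAX9 at 25.1 and PAX4 at 16.9, and PAX3, a neural crest and muscle factor, had both with folds of 46.0 for JARID2 and 4.44 for AEBP2. IRX genes of the Iroquois group had JARID2 alone at 5 of 6, led by IRX1 at 26.6, and IRX2 had both. Of 5 TFAP2 genes 4 had JARID2 alone, and TFAP2B had both. The 14 NKX genes had JARID2 alone at 8, AEBP2 alone at 0 and both at 5, with NKX6-3 at neither. These families are small, and a GATA, PAX or IRX gene without AEBP2 had none within 1 kb of its ends, whatever lay further away.

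Other developmental families were divided between JARID2 alone and both. The 12 LIM homeobox genes, many of them factors of motor neurons and interneurons, had JARID2 alone at 6, such as ISL2 with 31.9 and LHX8 with 28.1, and both at 6, such as LHX6 with 36.6 and ISL1 with 20.7. The 6 DLX genes had 3 of each. Among 37 forkhead genes 14 had JARID2 alone, 3 AEBP2 alone, 15 both and 5 neither. FOXL2, an ovarian factor, had both with a JARID2 fold of 65.1 and an AEBP2 fold of 3.20, while the AEBP2-alone forkhead genes were FOXI1, FOXO3 and FOXO4, with AEBP2 folds of 3.18, 2.93 and 1.85. FOXO3 and FOXO4, widely expressed factors of insulin signalling, had H3K4me3 and no H3K27me3. T-box genes had JARID2 alone at 3 of 16, AEBP2 alone at 1 and both at 9, and at a −log10 q of at least 5 JARID2 alone at 7 and both at 5. Those with both included TBR1 (JARID2 34.3, AEBP2 2.80), EOMES (29.3 and 3.91) and TBX20 (27.4 and 4.88). Of 30 mesoderm and muscle factors 8 had JARID2 alone, 5 AEBP2 alone, 15 both and 2 neither, and at the stricter q 13 had JARID2 alone and 8 both. MYOD1, the muscle determination factor, was in the AEBP2-alone class with a fold of 5.31, beside MSGN1 with 7.16 and TCF21 with 6.63. SHOX, a growth plate factor, had both, with a JARID2 fold of 30.9 and an AEBP2 fold of 16.

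SOX genes had JARID2 alone at 9 of 18, led by SOX17 with 34.9 and SOX14 with 24.6, and AEBP2 alone at SOX9, SOX11 and SOX6. The 3 AEBP2-alone members had AEBP2 folds between 2.12 at SOX6 and 2.5 at SOX9, and each had H3K4me3. Nuclear receptors, at 11, 4, 15 and 10 of 40 in the order JARID2 alone, AEBP2 alone, both and neither, included a split among steroid receptors. NR3C1, the glucocorticoid receptor, had JARID2 alone with 13.5. Both estrogen receptor genes, ESR1 (18.3) and ESR2 (4.37), had AEBP2 alone, and PGR, the progesterone receptor, had both (JARID2 8.35, AEBP2 5.85).

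Genes of the eye differed between retina and lens in JARID2 alone and in H3K27me3, and less in the share with both proteins. Of 20 eye field and retinal factors 13 had JARID2 alone, 0 AEBP2 alone, 6 both and 1 neither, and 90% had H3K27me3. JARID2-alone members included ONECUT1 with 34.1, PAX2 of the optic stalk with 29, OTX1 with 26.8 and RAX, an early eye field factor, with 23.1. Members with both included POU4F3 (JARID2 30.7, AEBP2 5.01), PTF1A (29 and 5.52) and MITF, the pigment cell factor (7.11 and 2.77). ATOH7 had neither.

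The 31 lens transcription factors were spread over the classes close to the shares of all genes with a symbol, with 8 at JARID2 alone, 6 at AEBP2 alone, 8 at both and 9 at neither. Genes with JARID2 alone included HSF4, a heat shock factor of fiber cells (9.09), GATA3 (6.13), TFAP2A (4.09), PAX6, the eye master regulator (3.52), SIX3 (3.16), SOX3 (2.36) and FOXE3 (2.27). AEBP2 alone was found at EYA1 (4.78), MAF, a regulator of crystallin genes (4.22), HES1 (3.25), ID2 (2.81), MAFA (1.72) and PKNOX1 (1.61). Both were found at SIX6 with a JARID2 fold of 32.5 and an AEBP2 fold of 2.57, MAB21L2 (12.1 and 2.38), TFAP2B (7.98 and 4.51), EYA2 (4.90 and 2.80), ETV5 (4.55 and 3.04), HEY1 (4.23 and 4.04), SOX1 (3.33 and 2.03) and MEIS2 (2.98 and 4.28). Neither was found at PROX1, PITX3, SOX2, MAB21L1, MEIS1, DACH1, ETV1, ID1 and ID3. H3K27me3 was found at 32.3% of the 31 lens factors, against 28.4% of genes with a symbol. PAX6, SIX3, SOX3 and FOXE3 had H3K4me3 and no H3K27me3, and at a −log10 q of at least 5 only PAX6 of these 4 kept a JARID2 region.

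Lens fiber genes, which include the crystallins and the membrane and filament proteins of the fiber cell, had a median JARID2 fold of 3.78 and a median AEBP2 fold of 3.20 where present, against 4.61 and 3.37 for genes with a symbol. Of 27 genes 7 had JARID2 alone, 6 AEBP2 alone, 4 both and 10 neither, and only CRYBA2 and CRYBB2 had H3K27me3. With a −log10 q of at least 5, the counts were 3, 4, 1 and 19 in the same order, so many of the regions named here are weak. Among 14300 genes with a symbol, neither went from 4725 to 7231 at that limit. JARID2 alone was found at ASL (9.31), HSPB1 (5.92), CRYGN (3.84), AQP5 (3.78), CRYBA1 (3.34), CRYBB3 (3.27) and GJA3 (2.59). ASL is a delta crystallin gene that also encodes the enzyme argininosuccinate lyase. AEBP2 alone was found at DNASE2B, a nuclease of fiber denucleation (5.08), the beaded filament gene BFSP2 (4.89), CRYBA2 (3.73), LGSN (3.45), LIM2 (2.96) and CRYBB1 (2.68). Both were found at CRYGS with a JARID2 fold of 7.03 and an AEBP2 fold of 2.93, CRYAA (3.81 and 2.29), BIRC7 (2.72 and 2.48) and MIP, the major water channel of fibers (2.63 and 5.86). Genes with neither included ASL1, BFSP1, CAPRIN2, CRYAB, CRYBA4, CRYBB2, GRIFIN, SLC2A1 and TDRD7. H3K4me3, present at 70.4% of these genes, was found at CRYBA1, ASL and GJA3 among the JARID2-alone genes and at every gene with neither protein except CRYBB2.

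Genes of Polycomb proteins were themselves distributed over the classes. Among 12 PRC2 genes JARID2 alone was found at EZH1 (5.60) and SUZ12 (4.49), and AEBP2 alone at EED (5.02), EZH2 (4.41) and RBBP4 (2.14). Both were found at AEBP2 (JARID2 6.62, AEBP2 2.72), LCORL (3.79 and 1.69), PHF19 (3.00 and 2.30) and LCOR (2.56 and 5.53). JARID2, MTF2 and RBBP7 had neither. With a −log10 q of at least 5, the 12 genes had JARID2 alone at 4, AEBP2 alone at 4, both at 0 and neither at 4. H3K27me3 lay at the AEBP2 and PHF19 genes and at no other PRC2 gene. Genes of PRC1, the complex that ubiquitinates histone H2A, leaned to JARID2. Of 23, 9 had JARID2 alone, 2 AEBP2 alone, 6 both and 6 neither. H3K27me3 was found at 69.6% of them and H3K4me3 at 95.7%, against 28.4% and 66.4% of genes with a symbol. BMI1 had JARID2 with a fold of 36.8 and PCGF1 with 21.7, while SCMH1 and YAF2 had AEBP2 alone with 4.89 and 2.55.

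Signalling genes were closer to the background. Of 234 genes in 9 families 66 had JARID2 alone, 32 AEBP2 alone, 65 both and 71 neither. BMP, GDF and TGFB ligands lay to the JARID2 side with 11 of 25 at JARID2 alone, 1 at AEBP2 alone, 3 at both and 10 at neither. GDF6 had 22.0, BMP4, a ligand of early lens induction, had 8.12 and NODAL had 5.96. BMP5 was the AEBP2-alone member, with 3.18. FGF ligands had JARID2 alone at 3 of 19 and both at 10. At a −log10 q of at least 5 they had JARID2 alone at 6 and both at 6. Those with both included FGF18 (JARID2 14.7, AEBP2 4.05), FGF3 (9.61 and 6.23) and FGF8 (6.92 and 4.47). FGF10, a lacrimal and limb growth factor, had AEBP2 alone with 4.48, and FGF2 had neither. Of 19 WNT ligands 6 had JARID2 alone, 3 AEBP2 alone, 8 both and 2 neither, with WNT4 at 21.4 for JARID2 and WNT3A at 8.49 for AEBP2. None of 25 semaphorin and plexin genes, of axon guidance, had AEBP2 alone, while 8 had JARID2 alone and 10 had both. With a −log10 q of at least 5, 3 of them had AEBP2 alone.

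Genes of neurons held the largest share with both proteins among the kinds of genes counted outside transcription factors. Of 278 channel, receptor and synaptic adhesion genes 61 had JARID2 alone, 56 AEBP2 alone, 107 (38.5%) both and 54 neither, and the count with both was 64 at a −log10 q of at least 5. Potassium channels had both at 39 of 83, and at 21 with the stricter q. Those with both included KCNC2 (JARID2 25.2, AEBP2 5.66) and KCNK13 (17.7 and 6.98). Glutamate receptors had both at 13 of 23 with GRM3 at 8.0 and 10.8, and all 23 had H3K27me3. GABA and glycine receptors had AEBP2 alone at 6 of 24, led by GLRA3 with 6.90, and both at 9. Among sodium and calcium channels the voltage-gated sodium channel genes SCN9A, SCN2A, SCN3A and SCN1A on chromosome 7 had AEBP2 alone with folds of 10.9, 7.01, 5.31 and 3.01. The SCN genes together had AEBP2 alone at 5 of 11.

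Some families of adhesion, matrix and transporter genes had AEBP2 alone above the 18.7% of genes with a symbol. Of 20 cadherins 5 had JARID2 alone, 9 AEBP2 alone and 6 both. The AEBP2-alone cadherins included CDH5 of endothelium (7.06), CDH9 (6.29), CDH11 of mesenchyme (5.84) and CDH6 (5.04), all 4 without either histone mark. CDH2, the N-cadherin of lens cells, had JARID2 alone with 3.46 and H3K4me3, and CDH1, the E-cadherin of epithelium, had both with 7.39 for JARID2 and 2.44 for AEBP2. Among 186 groups of genes that share the letters of their symbol and hold at least 10 members, a scan added after values had been seen, matrix metalloproteases (MMP) had AEBP2 alone at 8 of 14 and organic anion transporters (SLCO) at 6 of 10. MMP13, MMP3 and MMP2 had AEBP2 folds of 6.63, 4.78 and 4.41, with neither mark. Collagens were near the background, with 8, 7, 13 and 13 of 41 in the order JARID2 alone, AEBP2 alone, both and neither. Keratins on chromosomes 27 and 34 had no AEBP2 at all, with JARID2 alone at 8 of 21, led by KRT75L2 with 10.8 and KRT23 with 8.80. AEBP2 had 44.9 regions per Mb on chromosome 27 and 38.9 on chromosome 34, against 197 on chromosomes 1 to 5, and the part of this in the keratin counts was not tested.

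Housekeeping genes, active in every cell, lacked both proteins more often than genes with a symbol, the background used for the other families. Of 446 genes 115 had JARID2 alone, 75 AEBP2 alone, 76 both and 180 (40.4%) neither. Neither was found at 33.0% of genes with a symbol, and at 40.0% of all protein-coding genes, which include those with a LOC identifier. Both proteins were found at 17.0% of housekeeping genes, against 22.9% of genes with a symbol. On chromosomes 1 to 5, 6 to 10 and 11 to 28 (16 apart), 36.4%, 33.3% and 42.7% of housekeeping genes had neither. For all protein-coding genes of these groups, LOC identifiers included, the shares were 35.0%, 34.2% and 38.9%. Shares by group were not worked out for genes with a symbol. Cytosolic ribosomal proteins had neither at 34 of 71, mitochondrial ribosomal proteins at 35 of 72 and splicing factors at 20 of 43. The median JARID2 fold was 3.46 at cytosolic ribosomal protein genes and the median AEBP2 fold was 3.02, where RPL37 was highest among AEBP2-alone members with 6.55. H3K4me3 was found at 93.9% of housekeeping genes and H3K27me3 at 8.07%. In the scan of symbol groups, MHCY genes of the Y region of the major histocompatibility complex had neither at 11 of 11 and histone genes (HIST) at 24 of 28. They had the highest shares of the 186 groups, against 33.0% of genes with a symbol. Chromosomes differed widely, with neither at 87.2% of genes on chromosome 16, and the part of chromosome in these groups was not tested.

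Markers of vessels, mesenchyme, neurons, muscle and blood, cells that can come with a dissected lens, were sorted by the same rule. Endothelial markers had JARID2 alone at 7 of 15, AEBP2 alone at 3, both at 2 and neither at 3. FLT1 (15.2) and FLT4 (8.86), receptors of vessel growth, had JARID2, while CDH5 (7.06), EGFL7 (6.19) and VWF (2.92) had AEBP2 with neither histone mark. Mesenchyme markers had both at 8 of 15, neuronal markers at 7 of 13, muscle markers at 2 of 14 and blood markers at 2 of 13. With a −log10 q of at least 5, mesenchyme markers had both at 1 and JARID2 alone at 8, in place of 3, and neuronal markers had both at 3. Globin genes HBAD, HBBA, HBE and HBZ had neither protein and neither mark, while HBA1, a globin gene outside the list, had both proteins with a JARID2 fold of 3.92 and an AEBP2 fold of 4.45. Peak lists give no measure of how many cells of another kind were present, and their part in the classes was not tested.

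The chromosomes differed in the balance of the 2 proteins. Chicken chromosomes range from long macrochromosomes to short, gene-dense microchromosomes. JARID2 had 37.6 regions per Mb on chromosomes 1 to 5, 53.2 on 6 to 10 and 82.8 on 11 to 28 (16 apart). AEBP2 ran the opposite way, with 197, 160 and 91.1 regions per Mb. The rise was not particular to JARID2. On chromosomes 1 to 5 EZH2, SUZ12, H3K27me3 and H3K4me3 had 18.8, 42.1, 15.5 and 7.50 regions per Mb. On 11 to 28 they had 48.1, 96.9, 44.8 and 22.5, so AEBP2 was the only list that fell. By gene, JARID2 was found at 41.1%, 48.1% and 51.6% on the same groups, and AEBP2 at 47.2%, 41.6% and 27.7%. Chromosome 10 stood apart from its neighbours in AEBP2, with 61.6 regions per Mb against 140 on chromosome 9 and 185 on chromosome 11, while JARID2 had 55.5, 59.5 and 53.8 there. On chromosome Z JARID2 had 26.9 and AEBP2 107 regions per Mb. Chromosomes 16, 29, 31, 32, 33, 35, 36, 37 and W had few regions of either protein, at most 19.9 per Mb for JARID2 and 11 for AEBP2, and 79.1% of genes on 16 and 29 to 39 together had neither protein.

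**Figure D4:**
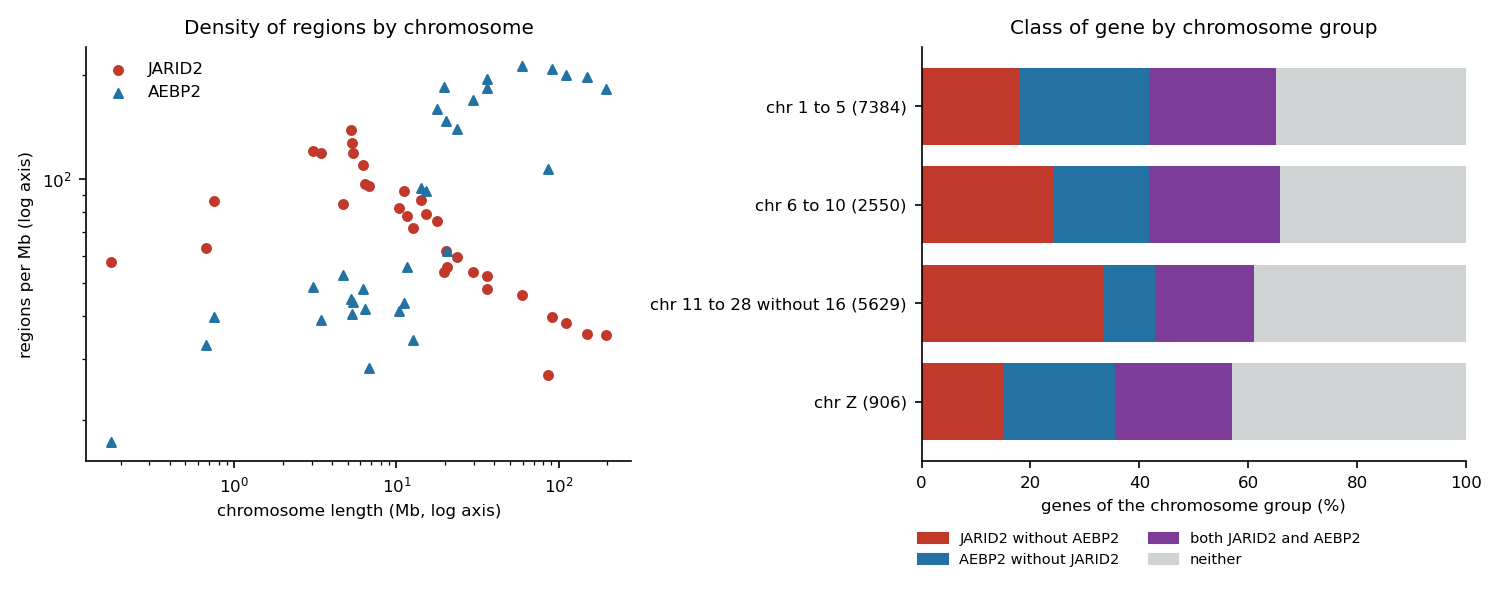
Left, regions per Mb of JARID2 (circles) and AEBP2 (triangles) against chromosome length, both axes logarithmic, 1 point per chromosome; chromosomes 16, 29, 31, 32, 33, 35, 36, 37 and W, with few regions of either protein, are left out. Right, share (%) of genes of each class by chromosome group, with the number of genes in brackets: JARID2 alone runs from 17.8% on chromosomes 1 to 5 to 33.4% on 11 to 28.

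These densities went with the classes. JARID2 alone was found at 17.8% of genes on chromosomes 1 to 5, 24.1% on 6 to 10 and 33.4% on 11 to 28. AEBP2 alone was found at 23.9%, 17.7% and 9.49% of genes on the same groups, and both at 23.3%, 24.0% and 18.2%. Chromosomes 1 to 5 held 32.2% of JARID2-alone genes and 58.7% of AEBP2-alone genes, against 41.4% of all genes. In each of these groups AEBP2-alone genes had H3K27me3 less often than JARID2-alone genes and genes with both. The difference between JARID2-alone genes and genes with both was smaller on 11 to 28 than on 1 to 5. On chromosomes 1 to 5 H3K27me3 was found at 36.1% of JARID2-alone genes, 16.3% of AEBP2-alone genes and 48.8% of genes with both, and on 11 to 28 at 43.9%, 19.7% and 45.8%. Developmental regulators on chromosomes 1 to 5 had JARID2 alone at 41, AEBP2 alone at 14, both at 55 and neither at 7 of 117, and on 11 to 28 at 38, 3, 23 and 9 of 73.

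Gene length also went with the classes. The median length was 10619 bp for JARID2-alone genes, 19404 bp for AEBP2-alone genes, 17255 bp for genes with both and 8686 bp for genes with neither, against 12080 bp for all genes. Over 5 equal groups of genes from short to long, the share with JARID2 was 37.9%, 43.8%, 42.9%, 43.7% and 47.6%. The share with AEBP2 was 23.6%, 30.1%, 37.1%, 42.1% and 52.4%. Both ends of a gene counted, and the windows have the same size at short and long genes. The part of gene length and chromosome in the family counts was not tested. Genes known only by a LOC identifier made up 11.3% of JARID2-alone genes, 11.1% of AEBP2-alone genes, 9.37% of genes with both and 33.7% of genes with neither.

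The 1 kb limit cut through a gradual decline. JARID2 had its nearest region between 900 and 1000 bp from an end at 249 genes, which were counted, and between 1000 and 1100 bp at 213 genes, which were not. For AEBP2 these numbers were 255 and 219. RAX2, a retinal factor, counted as JARID2 alone with a region at 1000 bp and a fold of 4.77, while LHFPL2 and PARL missed JARID2 by 1 bp. PDIA3 counted through an AEBP2 region at 999 bp with a fold of 2.77, while ZDHHC1 and CNTN1 missed AEBP2 by 1 bp.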

How the data were processed

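The data are 6 deposited peak lists, 1 per antibody, each covering 3 libraries; 2 IgG libraries were not used here. The submitters' processing notes name the peak caller MACS2 2.2.7.1, the aligner Bowtie2 2.4.1, the trimmer Trim Galore 0.6.4 and the build GRCg7b. Pooling of libraries and the use of IgG are not given in the sources used here, and read depth is unknown. Fold is the authors' deposited ratio over background, and significance is the deposited −log10 q-value; the lowest q-values match a limit of 0.05.

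Gene positions were read from a RefSeq table on the same build, which gives no strand, so windows of 1 kb were set around both ends, and an overlap of 1 bp counted. Where several regions lay at a gene the highest fold was taken. The code that sets the classes was tested on simulated data (900 of 900 planted genes recovered among 17839). The regions were planted inside the windows of genes that lie apart from others, so this checks the code only. Shares have Clopper-Pearson intervals, and no test was run, as there are no values per library. The members, the 73 gene lists and the alternatives were chosen with earlier results of these data known, and some lists were corrected after values were seen. Named genes are the 8 of highest fold per class, up to 6 per class of a list, all PRC2 and lens genes, and those nearest the 1 kb limit; other named genes were chosen after their values were seen. Some genes that this rule picks are not reported here. Python 3.11.15, pandas 2.3.3, numpy 2.4.6, scipy 1.17.1 and matplotlib 3.10.9 were used.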

Additional observations from a re-analysis of the deposited data

How the results depend on the processing

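Of 84 comparisons with an alternative setting, 56 stayed within a margin and 28 moved, the margin being 1.5 times the value for a count of genes and the value's own 95% binomial interval for a share. No order of the JARID2-alone and AEBP2-alone classes in H3K27me3 was turned; in H3K4me3 both classes stood at 65.6% with lists of equal size. Genes with both proteins numbered 1764 with a −log10 q of at least 5 in both lists, 1985 with lists of equal size (the AEBP2 list reduced to its strongest regions), 2394 with windows of 500 bp, 5954 with windows of 2.5 kb and 8041 with whole genes. AEBP2-alone genes numbered 1475 with lists of equal size, and genes with neither numbered 4242 with whole genes and 4725 among genes with a symbol. H3K27me3 at JARID2-alone genes was 48.9% at the stricter q and 41.9% with windows of 500 bp; at AEBP2-alone genes it was 21.7% at the stricter q and 19.5% with equal lists; at genes with both it was 55.4% at the stricter q. H3K4me3 at JARID2-alone genes was 68.4% among genes with a symbol, 69.8% with 2.5 kb and 62.5% with 500 bp. At AEBP2-alone genes it was 64.8% at the stricter q, 62.7% with a symbol, 65.6% with equal lists and 62.2% with 500 bp. At genes with both it was 70.0% with a symbol and 70.1% with equal lists. The overlap of JARID2 regions with AEBP2 was 13.5% at the stricter q, 8.62% with equal lists and 15.3% when 50% of the smaller region had to overlap. The overlap of AEBP2 regions with JARID2 was 3.86%, 8.63% and 4.44% under these settings. Fewer or smaller regions and windows make fewer overlaps in number by construction. A share can still rise, and with equal lists that of AEBP2 regions overlapping JARID2 went from 5.66% to 8.63%. Other causes were not tested.

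No paired analysis was possible because each antibody has 1 list over its 3 libraries. Windows at the gene start alone were not run, since the gene table gives no strand. Leaving out chromosomes 16, 29 to 39 and W was chosen after seeing the data. Sequences outside the assembled chromosomes carry names that the gene table does not hold, so including them added genes to the class with neither only. Depth limits all of these counts and is unknown: a missing region can be a weak one.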

Other observations

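Genes without a protein product were sorted by the same windows. Among 5741 long non-coding RNA genes 766 (13.3%) had JARID2 alone, 1651 (28.8%) AEBP2 alone, 674 (11.7%) both and 2650 (46.2%) neither. AEBP2 alone was thus their most frequent class with a protein, unlike among protein-coding genes as a whole. On chromosomes 1 to 5 it was also the most frequent among protein-coding genes, at 23.9%, with both at 23.3% and JARID2 alone at 17.8%. The part of chromosome in the non-coding counts was not tested. Among 799 microRNA genes JARID2 alone was found at 138 (17.3%), AEBP2 alone at 130 (16.3%), both at 57 (7.13%) and neither at 474 (59.3%). Among 274 transfer RNA genes the counts were 31, 27, 5 and 211. Many of these genes lie inside or beside protein-coding genes and can share a region with them.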
